A study of Mus musculus with 25 samples.

Results

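Hypoxia response and glycolysis genes were examined in Ep5 (EpRas) cells, a mouse mammary tumour line driven by an oncogenic Ras, that had been cultured with or without blood platelets. The 39 genes were chosen by name for their known roles, with earlier results of these data known. They were 15 glycolytic enzymes and 5 genes of glucose and lactate transport and of the control of glycolytic flux. The others were 3 genes of the hypoxia-inducible factor HIF and its prolyl hydroxylases, and 16 other HIF targets. Of the 39, 36 were measured on both array types. Gpi1, Gapdh and Eno1 had no probe set assigned to them alone and were not used here.

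The cells were grown in DMEM with serum, and all carried the label C57BL/6, as did the wild-type mice that gave the platelets. On 13 exon arrays, labelled with an Affymetrix kit, 5 samples were sub-confluent cells alone, 5 were cells cultured for 24 hours with about 1000 platelets per cell, and 3 were cells to which the same number of platelets was added immediately before RNA isolation (the lysis mix, which carries platelet RNA without any co-culture). On 12 gene arrays, labelled with a Nugen kit, 3 samples each were cells alone, cells with whole platelets, cells with the pellet of thrombin-treated and centrifuged platelets, and cells with the releasate of such platelets, the last 3 for 24 hours. Samples carry a replicate number: 1 to 5 alone, 1 to 5 with platelets and 4 to 6 in the lysis mix on the exon arrays, and 7 to 9 in each group on the gene arrays. The labels do not say whether samples came from separate cultures, so the spread behind every p-value is that of these samples and may be technical. Alone 8 and platelets 9 on the gene arrays carry a platelet tag that contradicts the source name by which they were grouped here.

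HIF is a pair of transcription factors whose alpha subunit is marked for destruction by prolyl hydroxylases as long as oxygen is plentiful. When oxygen is scarce the subunit persists and switches on genes that carry the short hypoxia response element, among them nearly every enzyme of glycolysis, glucose and lactate carriers, pH-regulating carbonic anhydrases, mitophagy receptors and vasoactive peptides. Tumour cells often keep part of this programme active in normal oxygen, and oncogenic Ras is one known route. The arrays measure RNA, and much of HIF control acts on the protein.

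Values are log2 signals, so a difference of 1 is a 2-fold difference in signal. A gene was called when the limma test gave an adjusted p under 0.05 over all 18997 genes of the exon arrays or all 19938 of the gene arrays. The exon arrays had medians of 3.62 to 3.90, those of the gene arrays were 5.56 to 5.63, and no 2 arrays held identical values. Of the 36 members, 30 lay above the median of every exon array. Eno2 and Vldlr lay below it on all 13, where a difference may not be measurable. Of 9 mammary epithelial markers measured on the exon arrays, 8 lay above every array's median, and Krt19 lay below all of them. The mean of that list was 9.82 to 10.03 alone, 9.83 to 9.99 in the lysis mix and 9.67 to 9.94 with platelets. In these lysates fewer cells of a type and less RNA per cell cannot be told apart.

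The 4 members with the largest called decrease from cells alone to cells with platelets on the exon arrays were Adm, Car9, Bnip3 and Pdk1, and the 250 bases before their annotated starts are shown because HIF acts on such elements in the promoters of its targets. The sequences are from RefSeq (GRCm38.p6), 5′ to 3′ on the strand of the gene, in lower case. Capitals mark the core of the hypoxia response element, ACGTG or GCGTG, on either strand.
Adm promoter, chr7:110627407-110627656, plus strand: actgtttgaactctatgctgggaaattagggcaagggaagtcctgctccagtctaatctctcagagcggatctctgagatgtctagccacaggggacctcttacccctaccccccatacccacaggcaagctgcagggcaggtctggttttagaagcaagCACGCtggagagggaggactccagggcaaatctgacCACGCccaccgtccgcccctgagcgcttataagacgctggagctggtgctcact
Car9 promoter, chr4:43506776-43507025, plus strand: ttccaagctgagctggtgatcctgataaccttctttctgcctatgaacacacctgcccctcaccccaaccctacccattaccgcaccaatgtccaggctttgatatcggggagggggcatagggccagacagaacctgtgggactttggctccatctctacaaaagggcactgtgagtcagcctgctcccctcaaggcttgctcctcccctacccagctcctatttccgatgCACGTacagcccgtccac
Bnip3 promoter, chr7:138909507-138909756, minus strand: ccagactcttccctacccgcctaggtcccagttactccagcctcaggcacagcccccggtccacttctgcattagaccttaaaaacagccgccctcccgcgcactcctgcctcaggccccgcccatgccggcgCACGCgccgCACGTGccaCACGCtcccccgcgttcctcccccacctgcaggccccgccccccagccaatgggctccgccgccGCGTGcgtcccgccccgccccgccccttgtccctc
Pdk1 promoter, chr2:71872974-71873223, plus strand: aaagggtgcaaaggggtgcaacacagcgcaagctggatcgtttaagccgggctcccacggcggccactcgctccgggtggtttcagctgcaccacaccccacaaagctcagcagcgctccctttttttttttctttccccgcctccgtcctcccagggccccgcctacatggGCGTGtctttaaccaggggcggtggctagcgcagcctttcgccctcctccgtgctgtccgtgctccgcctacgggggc
Adm held 2 copies of GCGTG, both on the opposite strand, at positions -90 and -54 from the start. In Car9 the ACGTG core lay on the opposite strand at position -18. Bnip3 held 5 matches, of which 2 are the same palindrome CACGTG read on both strands. Pdk1 held 1 GCGTG at -78 before the start shown, and the window of a second annotated start held none. Either motif, on either strand, occurred in 38.6% of all 32851 promoter windows in the table, and in at least 1 window of 41.5% of 27025 genes. Of the 11 called members with a window, 10 had a match, as did 20 of the 23 members that were not called, so a match did not set the called members apart. Bnip3l and Ndrg1 were not among the windows matched.

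Culture with platelets lowered a set of hypoxia and glycolysis genes on the exon arrays. Of the 36 measured members, 12 were lower than in cells alone and 0 were higher, against 2.47% of all genes lower and 2.07% higher. The median difference of the members was -0.32 and that of all genes -0.00, and 30 of 36 members lay below 0. Co-culture and cells alone did not overlap, in either direction, in 15 of 36 members and in 1046 of 18997 genes. The 12 were the hormone precursor gene Adm, the carbonic anhydrases Car9 and Car12, the mitophagy receptors Bnip3 and Bnip3l, the collagen hydroxylase subunit P4ha2, the kinase Pdk1, and the glycolytic enzymes Hk1, Pfkl, Pfkp, Aldoa and Aldoc.

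**Figure D1:**
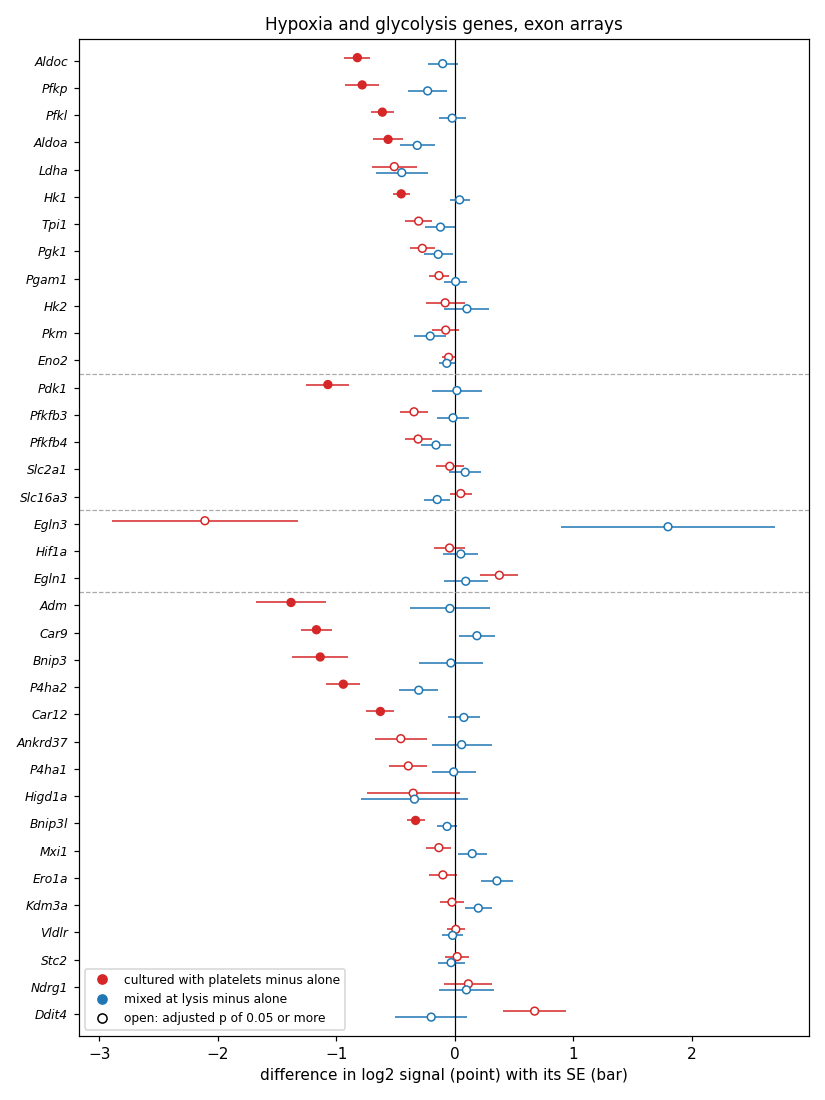
Difference in log2 signal (x axis) for each of the 36 measured members (y axis, grouped by role with dashed lines: glycolytic enzymes, transport and flux regulators, HIF and its hydroxylases, other HIF targets), cells with platelets minus alone in red and lysis mix minus alone in blue, with bars of 1 SE. Filled points passed an adjusted p of 0.05; there are 12, all red and all below 0, and Egln3 has the widest bars.

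Among the glycolytic enzymes, 5 of 12 measured members fell and all 12 differences lay below 0, with a median of -0.38. Hk1, a hexokinase that traps glucose in the cell as its phosphate, read 7.98, 7.90, 7.87, 7.95 and 8.15 alone and 7.42, 7.43, 7.47, 7.61 and 7.66 with platelets. Every platelet sample lay below every sample alone, and the difference was -0.45 (SE 0.08, adjusted p = 0.0027). Pfkl, the liver-type subunit of phosphofructokinase, which commits sugar to glycolysis, read 11.35, 10.80, 10.98, 11.05 and 10.99 alone and 10.33, 10.53, 10.25, 10.51 and 10.51 with platelets. It fell by 0.61 (SE 0.10, adjusted p = 0.00291) without overlap of the groups. The platelet-type subunit Pfkp read 8.54, 8.19, 8.22, 8.22 and 7.83 alone against 7.67, 7.37, 7.48, 7.35 and 7.22 with platelets. Its groups were separate as well, with a difference of -0.78 (SE 0.14, adjusted p = 0.00723).

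Both aldolases of the list, which split the hexose into 3-carbon sugars, were lower. Aldoa read 12.63, 11.80, 12.27, 12.08 and 12.22 alone and 11.61, 11.65, 11.55, 11.80 and 11.58 with platelets, a difference of -0.56 (SE 0.13, adjusted p = 0.0239). Alone 2 and platelets 4 were nearly level, and this call was lost when alone 3, alone 5 or platelets 1, 2, 3 or 5 was left out (adjusted p 0.0507 to 0.0637). Aldoc had values of 11.50, 11.23, 11.33, 11.57 and 11.46 alone and of 10.70, 10.68, 10.67, 10.31 and 10.63 with platelets. Its groups were clearly apart, and Aldoc fell by 0.82 (SE 0.11, adjusted p = 0.000634), the largest decrease among the enzymes measured.

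The enzymes that act later in the pathway gave no call. Ldha, which turns pyruvate into lactate, differed by -0.51 (adjusted p = 0.207), the triose phosphate isomerase Tpi1 by -0.30 (adjusted p = 0.208), the phosphoglycerate kinase Pgk1 by -0.27 (adjusted p = 0.244), the mutase Pgam1 by -0.13 and the pyruvate kinase Pkm by -0.08. The dim Eno2, an enolase, differed by -0.05. Ldha was called lower when lysis mix 4 was left out of the shared fit (adjusted p = 0.0419). Pgk1 was called lower when the replicate number entered the fit as a block (adjusted p = 0.0445). Counted by step, a split noticed after the values were seen and not tested, 5 of 6 enzymes from hexokinase to aldolase were lower and 0 of 6 from triose phosphate isomerase to lactate dehydrogenase. The exception in the upper stretch was Hk2, at -0.08 (adjusted p = 0.96). Pgk1, Pgam1 and Pkm belong to gene families with near-identical copies, and their values are uncertain for that reason.

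Of the 5 genes of transport and flux control, 1 fell. Pdk1, the kinase that shuts pyruvate dehydrogenase and so keeps pyruvate out of the mitochondrion, read 7.40, 6.25, 6.27, 6.57 and 6.59 alone and 5.55, 5.41, 5.48, 5.54 and 5.75 with platelets. The difference was -1.07 (SE 0.18, adjusted p = 0.00377), a signal 2.10-fold lower, and alone 1 stood well above the rest of its group. The 2 phosphofructo-2-kinases, which make the activator of phosphofructokinase, were not called, with Pfkfb3 at -0.34 (adjusted p = 0.144) and Pfkfb4 at -0.31 (adjusted p = 0.199). Slc2a1, the glucose transporter GLUT1, differed by -0.04 with a 95% interval of -0.30 to 0.21. Slc16a3, the lactate exporter MCT4, lay near the array medians and differed by 0.05.

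The targets outside metabolism held the largest called decreases, with 6 of 16 lower and 0 higher. Adm encodes adrenomedullin, a vasodilator peptide. It read 6.90, 6.21, 6.34, 7.29 and 5.93 alone and 5.21, 5.45, 5.64, 4.59 and 4.87 with platelets, so the groups did not overlap although both were spread. The signal was 2.61-fold lower, a difference of -1.38 (SE 0.30, adjusted p = 0.0169). Car9, a carbonic anhydrase on the cell surface and a standard marker of hypoxic tumour cells, read 10.95, 10.48, 10.47, 10.75 and 11.02 alone and 9.49, 9.55, 9.58, 9.33 and 9.88 with platelets. It fell by 1.17 (SE 0.13, adjusted p = 0.000172), the smallest adjusted p among the members. Its relative Car12 read 7.28, 7.09, 7.09, 7.002 and 7.42 alone and 6.44, 6.26, 6.61, 6.66 and 6.77 with platelets. The groups were again separate, at a difference of -0.63 (SE 0.12, adjusted p = 0.00839).

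The 2 mitophagy receptors were both lower. Bnip3 read 9.34, 7.98, 7.94, 8.43 and 8.23 alone and 7.32, 7.17, 7.06, 7.26 and 7.42 with platelets, with alone 1 far above the rest and no overlap. It differed by -1.14 (SE 0.24, adjusted p = 0.014). Bnip3l moved less, from 11.69, 11.34, 11.47, 11.58 and 11.60 alone to 11.29, 11.19, 11.20, 11.13 and 11.21 with platelets. That difference, -0.33 (SE 0.08, adjusted p = 0.0246), lost its call when any of 7 samples was left out: alone 1, 4 or 5 or platelets 2 to 5 (adjusted p 0.0525 to 0.0636).

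P4ha2, a catalytic subunit of the prolyl hydroxylase that stabilises collagen, read 7.92, 7.73, 7.81, 7.25 and 7.37 alone and 6.76, 6.88, 6.89, 6.44 and 6.42 with platelets. It fell by 0.94 (SE 0.14, adjusted p = 0.00187). Samples numbered 4 and 5 were lower than those numbered 1 to 3 in both groups, and within either set of numbers the groups were apart. Its sister subunit P4ha1 differed by -0.39 (adjusted p = 0.28). The remaining targets not called below 0 were Ankrd37 (-0.45), Higd1a (-0.35), Mxi1 (-0.13), Ero1a (-0.10) and the histone demethylase Kdm3a (-0.02). Vldlr, Stc2 and Ndrg1 lay at 0.01, 0.02 and 0.12.

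**Figure D2:**
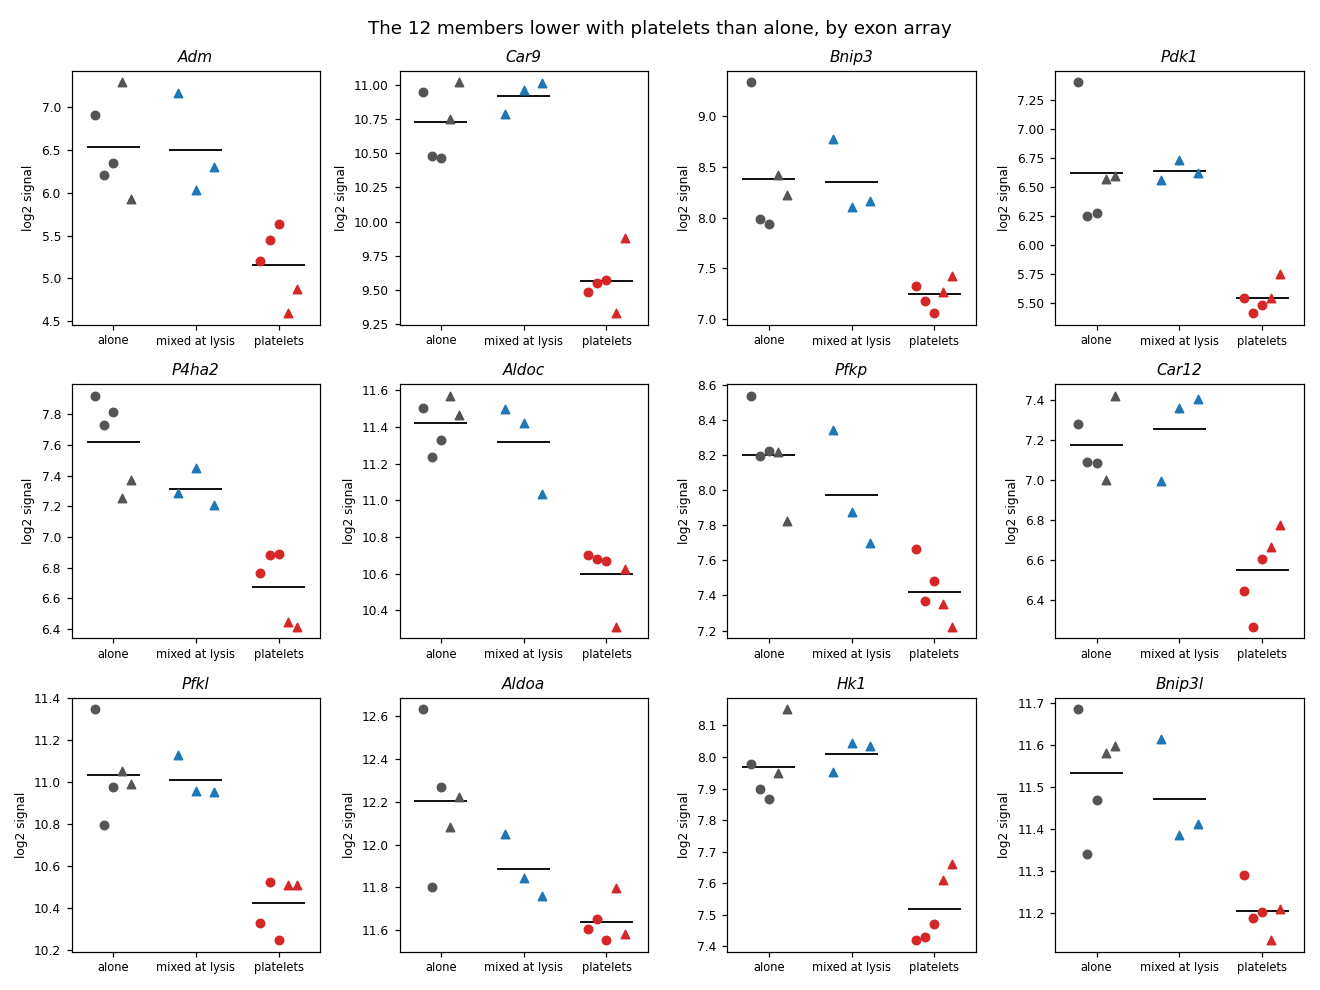
Log2 signal (y axis) on each exon array for the 12 members that were lower with platelets than alone, in cells alone, in the mixture made at lysis and in cells cultured with platelets (x axis). Circles are samples numbered 1 to 3, triangles samples numbered 4 to 6, and lines are group means; apart from Aldoa, whose values nearly meet, each member shows a gap between platelets and alone.

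Ddit4, an inhibitor of the growth kinase mTORC1 that is induced by hypoxia and by other stresses, had the highest difference of any member. It read 10.38, 9.96, 9.84, 10.64 and 9.61 alone and 10.86, 11.08, 10.89, 10.80 and 10.16 with platelets. The groups overlapped through platelets 5, and the difference of 0.68 (SE 0.27) was not called at an adjusted p of 0.246. Within the samples numbered 1 to 3 alone it was higher by 0.89 (adjusted p = 0.0249), and within those numbered 4 and 5 it differed by 0.36 (adjusted p = 0.897).

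RNA for HIF and its hydroxylases gave no call between platelets and alone in the fit without a block. Hif1a, the oxygen-regulated alpha subunit of HIF, read 9.24, 9.66, 9.74, 9.67 and 9.20 alone, 9.49, 9.65, 9.46, 9.33 and 9.36 with platelets, and 9.80, 9.34 and 9.53 in the lysis mix. The 3 groups overlapped, and platelets minus alone was -0.04 with a 95% interval of -0.32 to 0.23 (adjusted p = 0.982). Egln1, the main prolyl hydroxylase of HIF, differed by 0.38 (adjusted p = 0.307).

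Egln3, a prolyl hydroxylase that is itself a HIF target, varied more than any other member on the exon arrays and followed the replicate numbers. Alone it read 5.12, 4.29 and 4.84 in samples 1 to 3 but 7.80 and 8.65 in samples 4 and 5. With platelets it read 3.39, 3.54 and 3.48 in samples 1 to 3, and 4.64 and 5.11 in samples 4 and 5. Within each set of numbers every platelet sample was lower. Across all numbers the difference of -2.11 (SE 0.78) was not called (adjusted p = 0.209). When the 2 sets of numbers entered the fit as a block, it was called at the same size (adjusted p = 0.00933), and it was -1.28 in numbers 1 to 3 (adjusted p = 0.0176) and -3.35 in numbers 4 and 5 (adjusted p = 0.0917). The labels do not say what the numbers stand for.

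Splitting all members in the same way kept the direction of the 12 called genes but not the calls. In numbers 1 to 3 all 12 were lower, with differences from -1.24 to -0.27, and 8 members were called lower, 7 of them among the 12, with Ddit4 called higher, where 4.85% of all genes were called in either direction. In numbers 4 and 5 all 12 were lower, with differences from -1.88 to -0.41, and 0 of 36 members and 0.221% of all genes were called with these few samples. The median over all 36 members was -0.23 in the first set and -0.35 in the second.

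Cells alone also differed among themselves. Alone 1 was the highest of its group of 5 in 14 of 36 members and alone 4 in 12, while alone 2 was the highest in 0 and the lowest in 15. Over all genes alone 1 was highest in 23.9%, alone 4 in 22.6% and alone 2 in 13.2%, and alone 2 was lowest in 16.2%. The mean log2 signal over the glycolytic enzymes was 10.22 to 10.55 alone, 10.11 to 10.45 in the lysis mix and 9.92 to 10.01 with platelets. For the other HIF targets it was 7.57 to 7.98 alone, 7.59 to 7.96 in the lysis mix and 7.27 to 7.40 with platelets. The platelet samples lay below the other groups on both means and closer to each other.

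Where platelets were added only at lysis, 0 of 36 members were called against cells alone, with 0.0474% of all genes called in either direction by limma, and 1 member, Ero1a, had an unadjusted p under 0.05. The median difference of the members was -0.02. Among the 12 members lower after co-culture, the lysis mix ran from -0.32 for Aldoa, -0.30 for P4ha2 and -0.23 for Pfkp to 0.19 for Car9. The lowest difference of any member was that of Ldha, -0.45 (adjusted p = 0.945). In lysis mix 4, 5 and 6, Adm read 7.16, 6.03 and 6.29, Car9 10.79, 10.96 and 11.01, Car12 6.997, 7.36 and 7.41, and Pdk1 6.56, 6.73 and 6.62. Each lay above every platelet sample. Bnip3 read 8.78, 8.11 and 8.16 there, Bnip3l 11.61, 11.39 and 11.41, and P4ha2 7.29, 7.45 and 7.21, again above every platelet sample. Of the enzymes, Hk1 read 7.95, 8.04 and 8.04, Pfkl 11.13, 10.96 and 10.95, Pfkp 8.34, 7.87 and 7.70, and Aldoc 11.50, 11.42 and 11.04, without overlap with the platelet samples. Aldoa read 12.05, 11.84 and 11.76, and its lowest value lay below platelets 4. Co-culture and lysis mix did not overlap, in either direction, in 16 of 36 members and in 2231 of 18997 genes. The 12 members had been picked by a test on the same platelet samples. Ero1a, which re-oxidises the enzyme that forms disulphide bonds in the endoplasmic reticulum, had a difference of 0.36 (adjusted p = 0.945). The highest difference was that of Egln3, 1.80 (adjusted p = 0.945), with 7.87, 8.75 and 7.20 in the lysis mix. All 3 of those samples are numbered 4 to 6, and alone 4 and 5 read 7.80 and 8.65.

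Against the lysis mix, 8 members were lower in cells cultured with platelets and 0 were higher, where 2.14% of all genes were lower and 1.54% higher. Of the 8, 7 were also among the 12 lower than cells alone: Aldoc (-0.72), Hk1 (-0.49), Pfkl (-0.59), Pdk1 (-1.09), Car9 (-1.36), Car12 (-0.70) and Bnip3 (-1.10). These 2 comparisons share the platelet samples. The eighth was Egln3, at -3.91 (SE 0.91, adjusted p = 0.0309), for which the lysis mix holds only samples of the higher set of numbers. Once the set of numbers entered the fit as a block, the difference was -2.44 (adjusted p = 0.0294). Adm, at -1.34, and P4ha2, at -0.64, just missed the threshold (adjusted p 0.0508 and 0.0581), and Pfkp (-0.55), Bnip3l (-0.27) and Aldoa (-0.25) were not called. In the fit with the set of numbers as a block, P4ha2 was called lower, at -0.91 (adjusted p = 0.000286). Car12 and Bnip3 lost their calls in that fit (adjusted p 0.0553 and 0.129). The count fell to 4 without lysis mix 5 and to 5 without lysis mix 6. Bnip3 lost its call when any of 10 samples was left out: alone 4 or 5, platelets 1 to 5, or any lysis mix sample (adjusted p 0.0514 to 0.16). Egln3 lost its call without platelets 1, 2 or 3 or without any lysis mix sample (adjusted p 0.073 to 0.151). Car12 lost it without lysis mix 5 or 6, Pfkl without lysis mix 4 and Pdk1 without lysis mix 5 (adjusted p 0.0548 to 0.0761).

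The amount of platelet RNA in the co-cultures differed between samples. The mean of 17 platelet and megakaryocyte markers was 3.74 to 3.94 alone, 5.79, 5.73 and 6.18 in platelets 1 to 3, 4.59 and 5.02 in platelets 4 and 5, and 5.36 to 5.63 in the lysis mix. Of the 17, 9 were higher with platelets than alone and 6 were higher in the lysis mix. The members' median difference was -0.35 for platelets 4 and 5, where the platelet markers were lower, and -0.23 for platelets 1 to 3. Other markers moved too: the epithelial factor gene Elf3 fell by 1.40 and the claudin gene Cldn4 was 0.45 higher among 9 epithelial markers. The erythroid-listed mitochondrial iron carrier gene Slc25a37 fell by 0.64, and 2 of 14 leukocyte markers were higher, Laptm5 by 2.33 and Csf1r by 0.37. In the lysis mix Laptm5 differed from alone by more, 3.27, without a call. The defining leukocyte marker Ptprc was below the median of every array. The part of these shifts in the members' differences was not tested.

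HIF targets outside the 39 genes went both ways on the exon arrays. Of 25 further reported targets measured, 4 were higher and 1 was lower with platelets than alone, with a median difference of 0.09. Vegfa, the vascular endothelial growth factor, read 8.33, 8.28, 8.22, 8.19 and 8.64 alone and 9.50, 9.63, 9.58, 9.01 and 9.46 with platelets, 2.15-fold higher at a difference of 1.11 (adjusted p = 0.000149). Bhlhe40, a transcriptional repressor, was higher by 2.26 (adjusted p = 2.31e-06), the vasoconstrictor gene Edn1 by 1.96 (adjusted p = 0.00166) and the haem oxygenase gene Hmox1 by 0.82 (adjusted p = 0.0402). Bhlhe41, the close relative of Bhlhe40, was lower by a similar size (-2.20, adjusted p = 0.00474). Adm and Edn1, precursor genes of peptides that dilate and constrict vessels, thus moved in opposite directions in the same samples. None of these 5 was called in the lysis mix, where their differences ran from -0.37 for Edn1 to 0.63 for Bhlhe41.

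**Figure D3:**
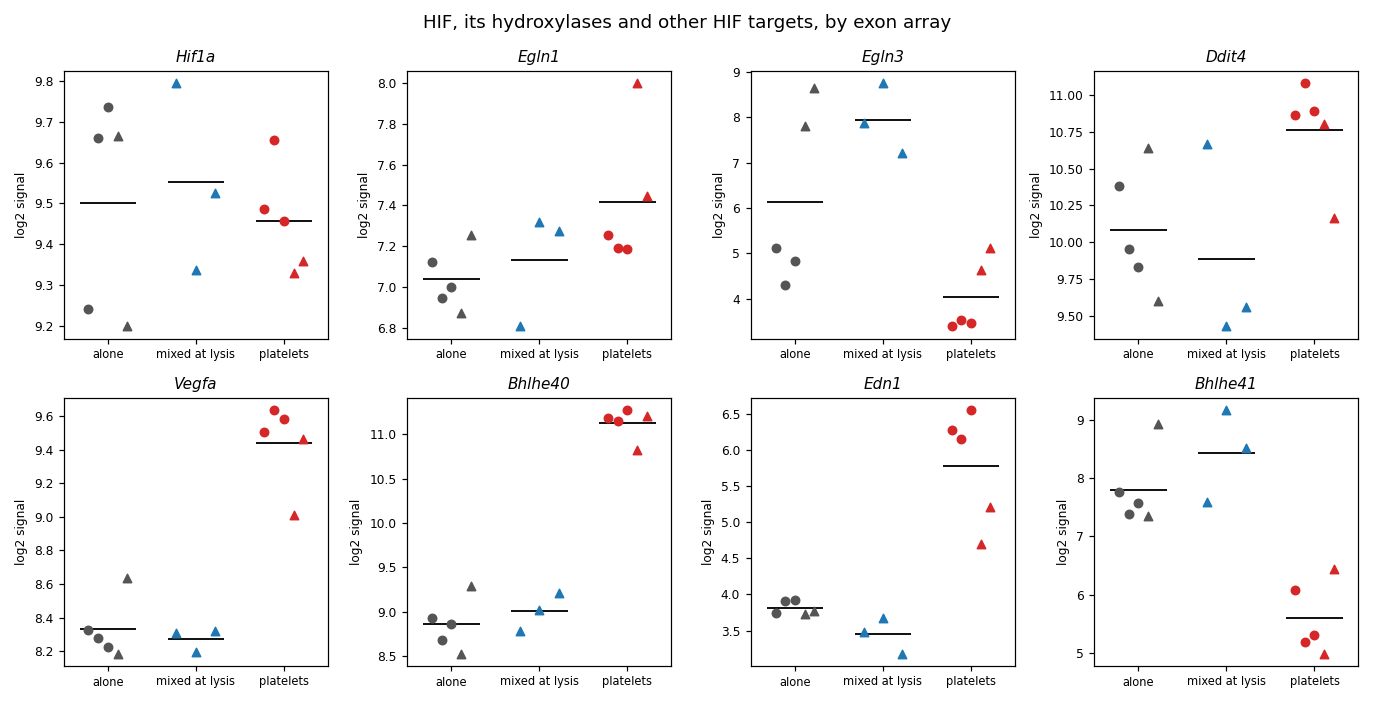
Log2 signal (y axis) on each exon array for Hif1a, Egln1, Egln3, Ddit4, Vegfa, Bhlhe40, Edn1 and Bhlhe41 in cells alone, in the mixture made at lysis and in cells cultured with platelets (x axis). Circles are samples numbered 1 to 3, triangles samples numbered 4 to 6, and lines are group means; Vegfa, Bhlhe40 and Edn1 were higher with platelets, Bhlhe41 was lower, Hif1a overlapped, and Egln3 splits between circles and triangles in cells alone.

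Of the other lists of the pathway, 2 held a called gene. Of 12 other oxygen sensing genes, among them Epas1, Arnt and Vhl, 0 were called in that comparison and the median difference was 0.02. Of 8 measured glycolytic isozymes outside the 39, 1 was lower: Pfkm, the muscle-type phosphofructokinase subunit, at -0.69 (adjusted p = 0.011), so that all 3 subunit genes of that enzyme were lower. Of 16 genes of pyruvate use, the pentose phosphate route and gluconeogenesis, 1 was lower, the pyruvate carboxylase gene Pcx, at -0.68 (adjusted p = 0.0393).

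The gene arrays asked which platelet fraction acts on the cells. In the fit without regard to replicate number, 0 of 36 members were called with whole platelets, with pellet or with releasate against cells alone by limma, where 0.667%, 0.416% and 0% of all genes were called in either direction. At an unadjusted p under 0.05, 9 members were lower with whole platelets, 11 with pellet and 0 with releasate, against 4.22%, 4.11% and 0.888% of all genes. At that threshold 0 members were higher in each, against 5.39%, 5.53% and 1.94% of all genes. The members' median difference was -0.24 with whole platelets, -0.26 with pellet and -0.06 with releasate, and that of all genes 0.01 or closer to 0. These 3 comparisons share the samples of cells alone. Between the fractions 0 members were called: 0.0451% of all genes were called for platelets against releasate, 0.00502% for pellet against releasate and 0% for platelets against pellet. The median of the members was -0.11, -0.23 and 0.02 in that order.

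**Figure D4:**
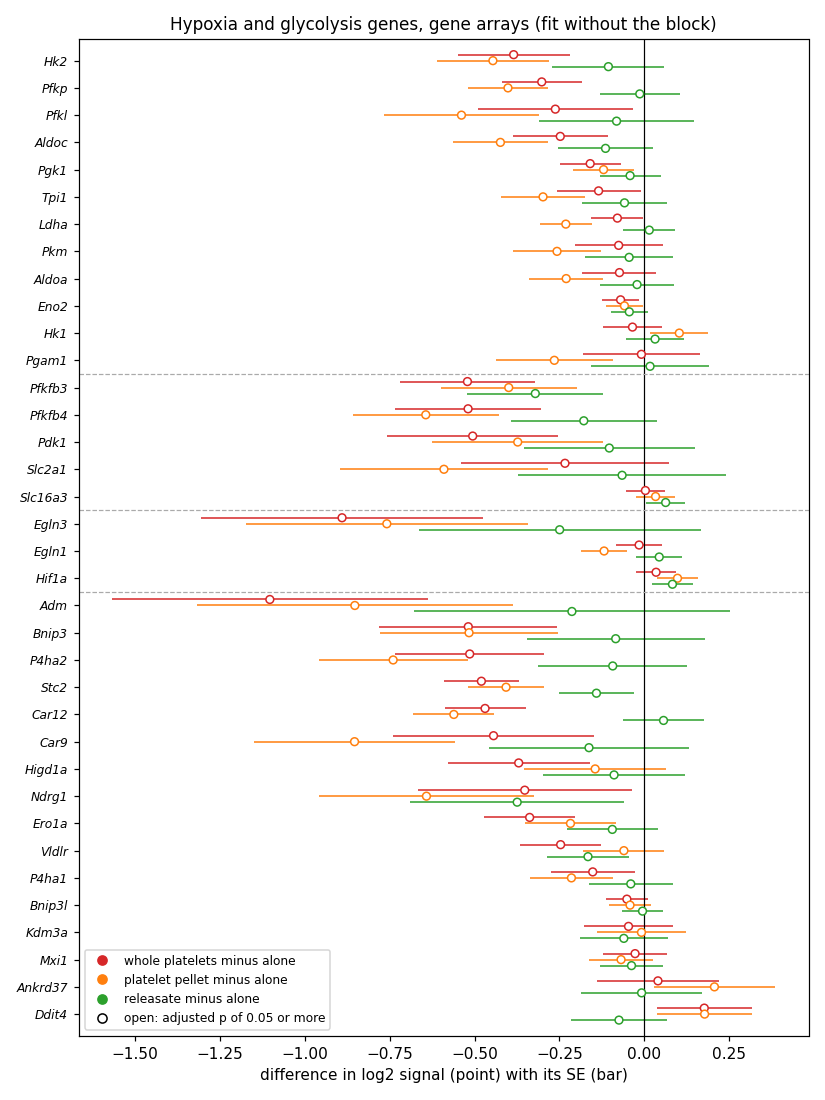
Difference in log2 signal from cells alone (x axis) for each of the 36 measured members (y axis, in the same role order with dashed lines) on the gene arrays, for whole platelets in red, pellet in orange and releasate in green, with bars of 1 SE. All points are open, as 0 members were called, and the median is -0.24 for whole platelets, -0.26 for pellet and -0.06 for releasate.

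On these arrays samples with the same number deviated together for whole platelets and alone (correlations of 0.29, 0.44 and 0.36 for numbers 7 to 9) and for releasate and alone (0.30, 0.38 and 0.29). With the number as a block, 6 of 36 members were lower with whole platelets and 0 were higher, against 1.1% of all genes lower and 1.17% higher. With releasate the block gave 0 of 36 members and 0% of all genes. The 6 were Adm, Egln3, P4ha2, Pdk1, Stc2 and Car12, of which 4 (Adm, P4ha2, Pdk1 and Car12) were also lower on the exon arrays. For number 8 the block joined alone 8 to treated samples of the other set of title numbers. The part of that split in these calls was not tested. For pellet and alone the numbers did not deviate together in every pair.

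Adm read 7.73, 6.45 and 7.47 alone, 6.72, 5.94 and 5.68 with whole platelets, 7.19, 5.77 and 6.13 with pellet and 7.81, 6.47 and 6.73 with releasate, for numbers 7, 8 and 9. Within every number the platelet and pellet samples lay below cells alone, and the releasate sample did so only for number 9. The difference with whole platelets was -1.10 (SE 0.19, adjusted p = 0.0183 with the block and 0.468 without), and with releasate -0.21. Egln3 read 9.15, 9.37 and 8.80 alone and 8.54, 8.67 and 7.45 with whole platelets. It fell by 0.89 with the block (SE 0.15, adjusted p = 0.0166, and 0.531 without). With pellet it read 8.81, 8.69 and 7.56, and with releasate 9.004, 9.43 and 8.15.

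P4ha2 read 9.08, 8.50 and 9.04 alone, 8.63, 7.88 and 8.56 with whole platelets, 8.19, 7.84 and 8.37 with pellet and 8.78, 8.57 and 8.99 with releasate. Every pellet sample was lower than every sample alone, and number 8 was the lowest in each group. The difference with whole platelets was -0.51 (adjusted p = 0.0187 with the block and 0.475 without). Pdk1 read 9.76, 9.15 and 9.65 alone and 9.38, 8.76 and 8.90 with whole platelets, lower by 0.38, 0.39 and 0.75 within the numbers. Its difference was -0.51 (adjusted p = 0.0323 with the block and 0.575 without). With pellet Pdk1 read 9.66, 8.67 and 9.12, and with releasate 9.68, 9.17 and 9.40.

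Car12 read 8.41, 8.41 and 8.59 alone, 7.89, 7.99 and 8.13 with whole platelets, 7.97, 7.70 and 8.05 with pellet and 8.56, 8.29 and 8.72 with releasate. Whole platelets and pellet lay below all samples of cells alone and of releasate. The difference with whole platelets was -0.47 (adjusted p = 0.0156 with the block and 0.126 without), and with releasate 0.06. Stc2, the secreted glycoprotein stanniocalcin 2, read 6.31, 6.37 and 6.29 alone and 5.92, 5.73 and 5.89 with whole platelets. It fell by 0.48 with the block (adjusted p = 0.0361, and 0.0938 without). Stc2 read 6.13, 5.67 and 5.95 with pellet and 6.33, 6.20 and 6.02 with releasate. On the exon arrays Stc2 lay near the array medians and differed by 0.02.

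**Figure D5:**
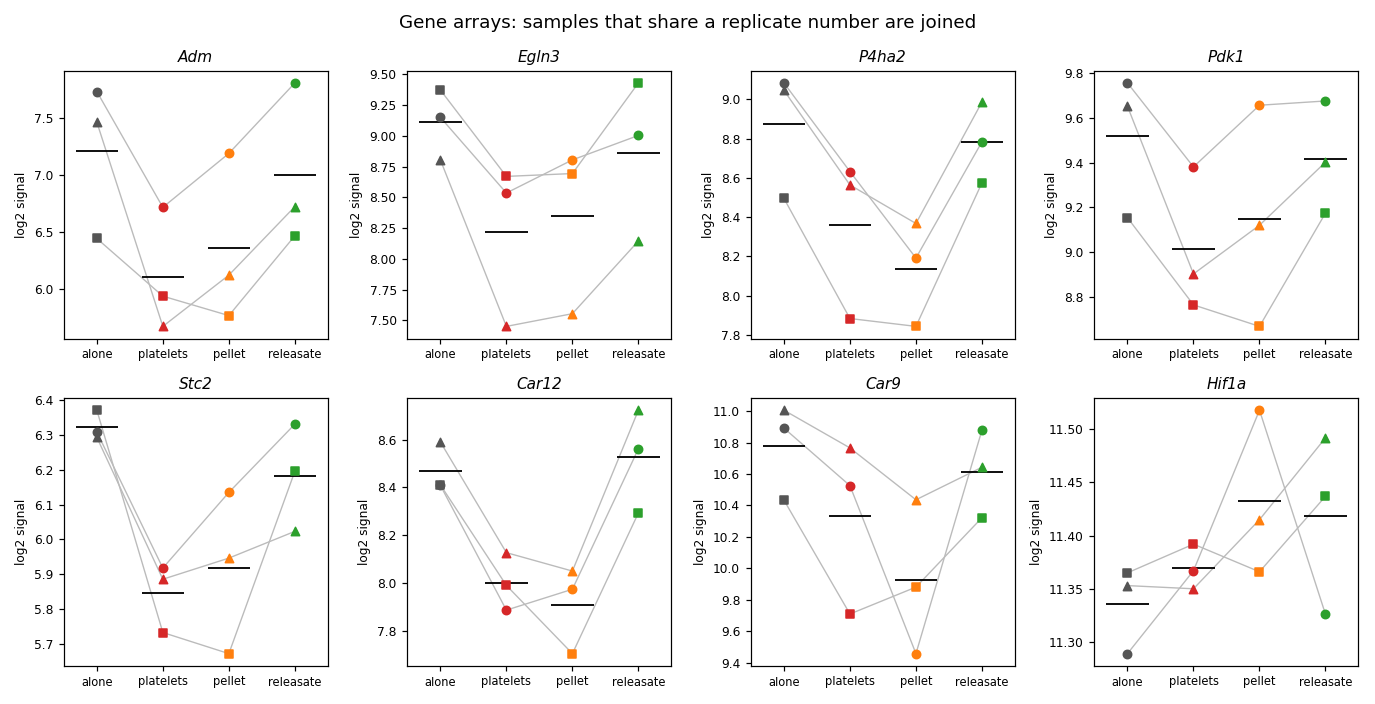
Log2 signal (y axis) on the gene arrays for the 6 members lower with whole platelets when replicate number was a block, and for Car9 and Hif1a, in cells alone and with whole platelets, pellet or releasate (x axis). Grey lines join samples of the same number (circle 7, square 8, triangle 9) and black lines are means. In the first 6 panels every line falls from alone to platelets, with differences from -1.79 to -0.38. These 6 had been picked by a test on the same samples.

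Several members called on the exon arrays were not called here even with the block. Car9 read 10.89, 10.43 and 11.01 alone, 10.53, 9.71 and 10.77 with whole platelets, 9.46, 9.88 and 10.44 with pellet and 10.88, 10.32 and 10.64 with releasate. Its difference was -0.44 with whole platelets (adjusted p = 0.469 with the block), with a 95% interval of -0.93 to 0.04, and -0.85 with pellet. Pfkp read 10.997, 10.56 and 10.83 alone and 10.55, 10.47 and 10.46 with whole platelets, a difference of -0.30. Bnip3 differed by -0.52 with whole platelets, and its second probe set by -0.62. Hk1 differed by -0.04 on the brighter of its 2 probe sets, the one used, and by -0.30 on the other. Hif1a read 11.29, 11.37 and 11.35 alone and 11.37, 11.39 and 11.35 with whole platelets, a difference of 0.03 with a 95% interval of -0.11 to 0.18 in the blocked fit. It read 11.52, 11.37 and 11.41 with pellet and 11.33, 11.44 and 11.49 with releasate.

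Number 8 stood low among cells alone. Alone 8 was the lowest of the 3 in 27 of 36 members, against 33.0% of all genes. The number 8 samples were also the lowest of their group in 21 members with whole platelets, 22 with pellet and 20 with releasate. Over all genes these shares were 31.3%, 37.4% and 24.4%. Pfkfb3, which read 6.80, 5.77 and 6.51 alone and 5.85, 5.81 and 5.86 with whole platelets, was called lower when alone 8 was left out (adjusted p = 0.0259, and 0.0482 with pellet). Platelet and megakaryocyte markers, 15 of which were measured, averaged 5.64 ± 0.05 alone (SD, n = 3), 5.98 ± 0.03 with whole platelets, 5.94 ± 0.04 with pellet and 5.57 ± 0.03 with releasate. Of the 15, 2 were called higher with whole platelets, 2 with pellet and 0 with releasate. On the mean of these markers alone 8, at 5.59, and platelets 9, at 5.94, lay with the groups of their source names. The part of platelet RNA was not tested on these arrays, which hold no lysis mix. The further HIF targets gave 0 calls of 27 with whole platelets: Bhlhe40 differed by 0.62, Edn1 by 0.55, Vegfa by 0.12 and Bhlhe41 by -1.10 (adjusted p 0.333 to 0.915).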

How the data were processed

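Total RNA was measured on Affymetrix exon arrays (13 samples) and gene arrays (12). The authors deposited log2 RMA probe set values, made with Partek 6.4 and 6.5 per the submitters' processing notes; other steps are not given in the sources used here. RMA brings array distributions closer together, so global shifts in RNA may not be seen. The exon array medians still ran from 3.62 to 3.90. Probe sets with 1 gene symbol were kept, and the brightest on average stood for its gene. The tables were never merged. Differences were tested with limma 3.58.1 in R 4.3.3 (lmFit, eBayes, all groups of a table, two-sided), with Benjamini-Hochberg adjustment over all genes and a threshold of 0.05. The fit was tested on simulated data. Replicate numbers were taken to pair gene array samples where every same-number correlation of deviations from group means exceeded 0.1, which held for whole platelets and for releasate against alone. Members and lists were chosen with earlier results of these data known. All members are named; values in every sample of the table are given for Hif1a and, where a table called a member in the comparison with cells alone, for that member in that table. Arrays give no counts, so their number limits precision. Alternatives were another probe set rule, filter, normalization, array weights, blocks, subsets and leaving out each sample.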

Additional observations from a re-analysis of the deposited data

Results flagged for a closer look

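In 6 of 72 sets of values (a member in the 5 samples alone or the 5 with platelets, on the exon arrays) 1 sample stood apart by Dixon's criterion, which flags about 1 set in 20 by chance. Alone 4 was high for Pgam1, at 10.9 with the next sample at 10.6. Alone 2 was low for Slc16a3, at 3.90 with the next at 4.08. Alone 1 was high for Stc2, at 4.06 with the next at 3.64. Platelets 4 was low for Aldoc, at 10.31 with the next at 10.63. Platelets 5 was low for Ankrd37, at 3.27 with the next at 3.36, and for Higd1a, at 6.32 with the next at 7.24. Higd1a was also low in alone 5 (6.54) and in lysis mix 5 and 6 (6.67 and 6.47). Of these genes only Aldoc was called, and leaving out platelets 4 kept that call.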

How the results depend on the processing

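The 12 members lower with platelets than alone on the exon arrays differed from 0 in the same direction under every alternative run. The count of members called in either direction was 11 to 15 with other normalizations, filters, probe set rules, weights and blocks. It was 9 in numbers 1 to 3 only, and 0 in numbers 4 to 6 only, a fit on fewer samples. Ddit4 was called higher with array weights (0.87, adjusted p = 0.00768), with the replicate block (0.68, adjusted p = 0.036) and in numbers 1 to 3 only. All other calls in these settings were lower. Leaving out 1 sample gave 10 to 13 calls for that comparison, 0 for the lysis mix against alone, and 4 to 10 for platelets against the lysis mix. With quantile normalization applied again, platelets against the lysis mix gave 6 calls (3.88% of all genes). Hk1, Car12 and Bnip3 were lost there and Adm was gained. Against alone, Hk1 was lost in that setting. Platelets against the lysis mix gave 15 calls with array weights (13 lower, 2 higher), 5 with the replicate block and 1 in numbers 4 to 6 only, where 23.2%, 2.48% and 0.368% of all genes were called, against 3.68% without these changes. Same-number correlations on the exon arrays were -0.26, 0.48, 0.50, 0.06 and 0.58 for platelets and alone. They were -0.05 and 0.50 for platelets and the lysis mix, and 0.65 and 0.44 for the lysis mix and alone. The numbers were not used as pairs in the main exon fit, as not all of these exceeded 0.1. With the replicate block platelets against alone gave 15 calls (14 lower, 1 higher). On the gene arrays, whole platelets against alone gave 0 to 1 calls leaving out 1 sample, 1 with 2 groups only (0.401% of all genes), 2 with array weights (2.33%) and 6 with the replicate block (2.28%). Pellet against alone gave 0 to 1 leaving out 1 sample, 2 with array weights (2.51%) and 4 with the replicate block (1.8%; Pfkp, Egln3, Car12 and P4ha2). The block gave 1 call for platelets against releasate and 2 for pellet against releasate. The other gene array comparisons gave 0 calls in every setting. Leaving out both alone 8 and platelets 9, or blocking on the sets of title numbers, gave 0 in all. Those fits held no replicate block, and the main fit without it also gave 0. The members called with the replicate block were not refitted without those 2 samples. Causes were not tested. With 3 samples a group and no background readings in the files, small differences of dim genes could not be measured.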
